A study of Homo sapiens with 3 samples.

Results

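The regions described here are 3'UTRs on which ribosome footprints were found past the first in-frame stop codon even without a drug. They were chosen by measured values: a transcript was taken when it was listed in all 3 libraries, had at least 1 further stop codon in frame in its 3'UTR, and carried 10 or more footprints beyond that codon when both untreated libraries were added. Of 8401 transcripts with such a codon, among 8812 listed in all libraries, 482 met this rule and are called members below. Because the rule read the untreated libraries, the untreated levels of the members, and their fold against untreated, are given as a description with no test.

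Ribosome footprints were sequenced from HEK293T, a line derived from human embryonic kidney and transformed with SV40 large T antigen among other viral genes. Untreated A and Untreated B received no drug, and G418 A came from cells grown for 24 hours with G418, an aminoglycoside, at 500 µg/mL. All cells were lysed with cycloheximide, and the study calls the replicates of its more deeply sequenced untreated and G418 libraries biological. The labels do not describe the cultures. G418 A is a single library, and differences from it have no replicate check. Depth, as recovered from the tables, was 5857230 reads for Untreated A, 9477972 for Untreated B and 7216039 for G418 A, and 3 values given together below keep that order of the libraries. No marker list for HEK293T was checked here.

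A ribosome that reaches the normal termination codon (NTC) is normally released by the release factors eRF1 and eRF3, and the subunits are then recycled by ABCE1. In stop codon readthrough a near-cognate tRNA decodes the NTC instead, and the ribosome goes on in the same frame until the next in-frame stop, called the 3'TC, where it can terminate. Aminoglycosides such as G418 bind the decoding centre of the ribosome and raise the misreading of codons. Footprints beyond the 3'TC lie past the stop that ends an in-frame extension.

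The stops that define the regions are shown for 5 members in which the NTC and the 3'TC fit in one short window, so that the distance between them can be read directly. Each line begins at the NTC and runs 5′ to 3′ on the mRNA strand in hg38, and the capitals mark the NTC and the 3'TC. HSP90AA1 and TSPAN3 had many untreated reads, SMIM13 was among the 10 with the most, LDHB is known for readthrough and ACTG1 had one of the 5 highest folds in G418.
HSP90AA1, chr14:102081685-102081714, minus strand: TAAtctctggctgagggaTGActtacctgt
TSPAN3, chr15:77046808-77046837, minus strand: TAGttgacaactcaagccTGAgctttttgg
SMIM13, chr6:11134600-11134629, plus strand: TAGtcctgtacttgtgaaggaTGAaaaggc
LDHB, chr12:21635515-21635544, minus strand: TGActagtgagctctaggctgTAGaaattt
ACTG1, chr17:81510663-81510692, minus strand: TAAacggactcagcagatgcgTAGcatttg

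For 4 members with very high counts the 3'TC lies farther from the NTC, and the window is placed around the 3'TC alone, in capitals. Reads counted as beyond lie to the right of the capitals.
EDARADD, chr1:236482674-236482703, plus strand: ctctccggatgtTGAaacaaccacaggtca
KRT10, chr17:40818431-40818460, minus strand: caagacaattatTGAagaggtggcgcccga
NGRN, chr15:90271828-90271857, plus strand: ctgggcaagtatTAAtgtatatggaacagc
TP53RK, chr20:46687073-46687102, minus strand: gtctctccaactTAGccaagacaattgggc

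The members together carried 6247, 9150 and 13899 reads beyond the 3'TC. As reads per 1e6 reads of the library (RPM) these are 1067, 965.4 and 1926, so the G418 library lay above both untreated ones. The pooled level in G418 was 1.90 times the untreated mean of 1016 RPM ± 71.5 (SD, n = 2), and Untreated B was 0.905 times Untreated A. Without EDARADD, which alone held 31.7% of the untreated reads of the members, the pooled fold was 2.46. For the 7919 other transcripts with an in-frame stop, the reads beyond were 3963, 5520 and 32255, a fold of 7.10.

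The members held 61.2%, 62.4% and 30.1% of all reads beyond the 3'TC. The 95% Wilson intervals were 60.2 to 62.1, 61.6 to 63.2 and 29.7 to 30.5. These intervals, and all others given here, cover counting error only. The larger share in the untreated libraries is what a rule based on those libraries favours, and nothing further is read from it.

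The count was uneven among members. The median member had 13 untreated reads, 359 had fewer than 20, 106 had 20 to 49, 8 had 50 to 99 and 9 had 100 or more. The 10 members with the most reads held 47.8% of the untreated total. Members just inside the limit, with 10 untreated reads, numbered 81, and transcripts just outside it, with 9, numbered 85. Among those inside with the most CDS reads, CANX (calnexin, an ER chaperone) had 0, 10 and 19 reads, CAPRIN1 had 6, 4 and 14, and EIF3B had 5, 5 and 59. Just outside, CALR (calreticulin) had 4, 5 and 84, EIF4A1 had 2, 7 and 15, and GLO1 had 3, 6 and 13. The neighbours on both sides of the limit had similar untreated counts and differed widely from each other in G418.

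**Figure D1:**
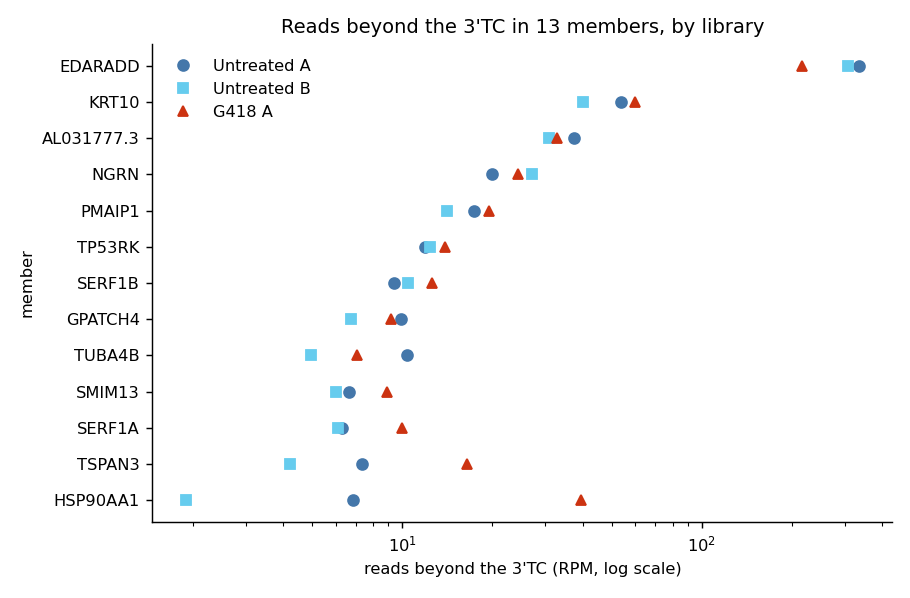
Reads beyond the 3'TC in RPM (log scale) for 13 members, with a circle for Untreated A, a square for Untreated B and a triangle for G418 A. EDARADD sits at 334, 308 and 216 RPM, above all the others, and is the only one of the 13 whose G418 value lies below both untreated values.

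EDARADD, which encodes an adaptor of the ectodysplasin receptor, stood apart from every other member. Its 3'UTR carried 1959, 2920 and 1561 reads beyond the 3'TC, or 334, 308 and 216 RPM. Both untreated libraries were therefore close, with Untreated B at 0.921 times Untreated A, and the G418 library was lower than either. The G418 level was 0.673 times the untreated mean. The exact interval for the ratio of 2 Poisson counts, with the untreated reads of both libraries summed, was 0.642 to 0.720. By contrast its CDS held only 24, 25 and 31 reads. The density of reads beyond the 3'TC was 2145%, 3069.5% and 1323% of its own CDS density, so the 3'UTR was covered far more densely than the coding region of the same transcript. Between the NTC and the 3'TC, a stretch of 39 nt including the 3'TC, there were 0, 0 and 3 reads, at or under the 3 reads that a count of 0 allows.

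The 3'UTR of EDARADD spans 2265 nt at chr1:236482650-236484914 on the plus strand and holds 30 in-frame stops. GENCODE version 44 places a processed pseudogene of the glycolytic enzyme alpha-enolase, ENO1P1, inside it at chr1:236483165-236484468, on the same strand and wholly beyond the 3'TC. The copy begins 476 nt after the 3'TC. Its start is printed beside the start of the ENO1 CDS, since both are the same over these 30 bases; capitals mark the start codon.
EDARADD 3'UTR, chr1:236483165-236483194, plus strand: ATGtctattctcaagatccatgccagggag
ENO1 CDS, chr1:8874879-8874908, minus strand: ATGtctattctcaagatccatgccagggag
Over the 1302 nt of the ENO1 CDS the copy was identical at 1213 positions, or 93.2%, with no gap, and the frame of its start codon ran for 388 codons before a stop. Of the 2199 stretches of 28 nt, the shortest footprint counted, in the EDARADD 3'UTR beyond the 3'TC, 238 also occur in the ENO1 CDS without a mismatch.

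The CDS of ENO1 itself held 20585, 32085 and 17207 reads, which are 3514, 3385 and 2385 RPM. Its G418 level was 0.691 times the untreated mean, and that of the EDARADD 3'UTR was 0.673 times. The tables give only sums per region, so where in the 3'UTR the reads lay is not known here, and whether they came from ENO1 mRNA was not tested. For reads that fit several places the authors had kept the primary alignment. Pooled values below include EDARADD, and some are also given without it. Those for choices on 1 untreated library, with 1 untreated library left out or with other minimums of reads are not.

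KRT10, a type I keratin, had the second highest count, with 315, 381 and 431 reads beyond the 3'TC. Its G418 level of 59.7 RPM was above Untreated A at 53.8 and Untreated B at 40.2, and 1.27 times their mean (interval 1.16 to 1.49). The CDS of the listed transcript carried few reads, 21, 70 and 19, so the density beyond was many times that of the CDS in each library. Of the 329 nt beyond the 3'TC, 67 nt are annotated as CDS in another KRT10 transcript, at the end nearest the 3'TC.

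A second group of high members also overlapped coding sequence or a copy of it. AL031777.3, named for the clone it was found on, had 220, 294 and 237 reads beyond, and 221 nt of its region are the CDS of the histone H3 gene H3C4 on the same strand (CDS chr6:26196843-26197250). Its fold was 0.958 (interval 0.837 to 1.15), with G418 A between both untreated libraries. NGRN, neugrin, had 117, 257 and 176 reads and a fold of 1.04 (0.831 to 1.20). In its 3'UTR of 6353 nt lies PERPP2, a processed pseudogene of PERP, a p53-induced membrane protein, at chr15:90275129-90275716. The start of this copy, 3286 nt past the 3'TC, again equals the start of the parent CDS over 30 bases, with the start codon in capitals.
NGRN 3'UTR, chr15:90275129-90275158, plus strand: ATGatccgctgcggcctggcctgcgagcgc
PERP CDS, chr6:138107311-138107340, minus strand: ATGatccgctgcggcctggcctgcgagcgc
The PERP CDS held 1130, 2181 and 1586 reads, and its fold in G418 was 1.04, as was that of the NGRN 3'UTR. Whether the NGRN reads came from PERP mRNA was not tested. SRP19, a signal recognition particle protein, had 35, 37 and 38 reads beyond and a fold of 1.07 (0.736 to 1.68), and its region is covered over 1418 nt by ZRSR2P1, a copy of the splicing factor gene ZRSR2. In these 3 members the G418 value did not leave the range of the untreated libraries.

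PMAIP1, which encodes the pro-apoptotic BCL2 family protein NOXA, had 102, 134 and 141 reads, or 17.4, 14.1 and 19.5 RPM, a fold of 1.24 (1.02 to 1.57), and no annotated coding sequence in the 626 nt beyond its 3'TC. TP53RK, a kinase of the KEOPS complex, had 70, 117 and 100 reads and a fold of 1.14 (0.882 to 1.46), and 332 nt of its region are CDS in another TP53RK transcript. SERF1B had 55, 99 and 91 reads, and SERF1A had 37, 58 and 72. The last pair are near-identical copies on chromosome 5 with 3'UTRs of the same length, 1341 nt, so how the reads were split between them is uncertain. GPATCH4, which could not be placed on the later annotation, had 58, 64 and 66 reads, TUBA4B, an alpha-tubulin gene, had 61, 47 and 51, and SMIM13, a small membrane protein gene, had 39, 57 and 64.
Of the 10 members with the most untreated reads, none was 2-fold away from the untreated mean in G418: the folds ran from 0.673 in EDARADD to 1.40 in SMIM13.

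Lower in the order, which is by the untreated reads that the rule used, some members lay over 2-fold from the untreated mean. Others did not, such as SERF1A with a fold of 1.60, SRP19 with 1.07 and ITGAE with 0.622. TSPAN3, a tetraspanin, had 43, 40 and 119 reads, a fold of 2.85 (2.28 to 4.08) with the G418 value of 16.5 RPM above 7.34 and 4.22. HSP90AA1, the inducible cytosolic HSP90, had 40, 18 and 285 reads, which are 6.83, 1.90 and 39.5 RPM. Its fold was 9.05, although the untreated libraries themselves differed, Untreated B being 0.278 times Untreated A. TMEM167A, a small membrane protein gene, went the other way with 26, 55 and 16 reads and a fold of 0.433 (0.229 to 0.724).

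**Figure D2:**
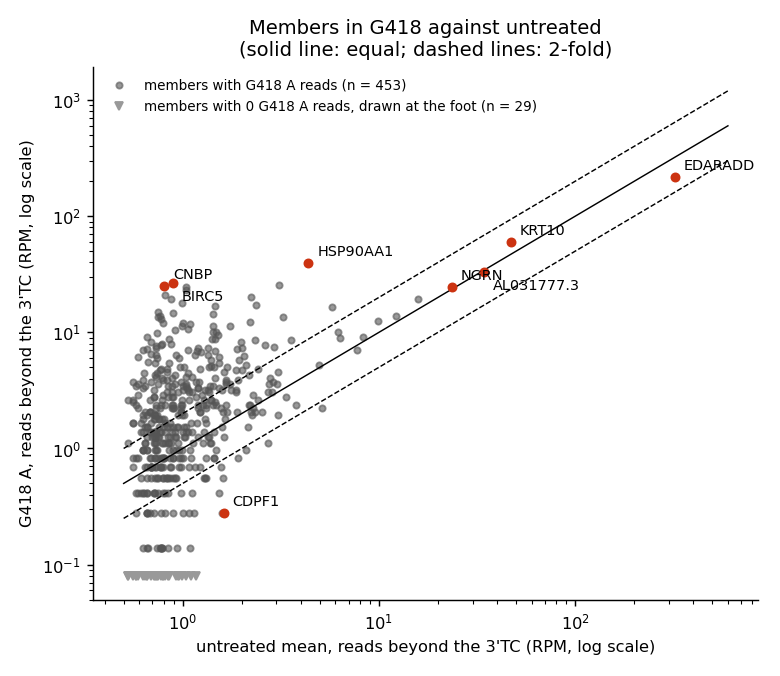
Each point is a member, with the untreated mean of reads beyond the 3'TC on the x axis and G418 A on the y axis, both in RPM on log scales. The solid line marks equal levels and the dashed lines 2-fold. The members with the most reads, EDARADD, KRT10, AL031777.3 and NGRN, lie near the solid line, those with about 1 RPM spread from 0 to about 27 RPM, and the 29 with 0 reads in G418 A stand at the foot.

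Member by member, the median fold was 1.70, with quartiles of 0.872 and 3.22. In G418 209 of 482 members (43.4%) were at least 2-fold higher than the untreated mean, 68 (14.1%) were at least 2-fold lower and 205 lay between. Over all 1823 transcripts with 10 or more reads beyond in the 3 libraries together, 77.6% were at least 2-fold higher and 4.28% at least 2-fold lower. The rule used the untreated side of this contrast, so no comparison of these shares is made. The G418 value was above both untreated values in 285 members, beside 83.7% of the 1823, and below both in 83, beside 5.27%. For 199 members the counting interval of the fold lay wholly above 1 (69% of the 1823), for 36 wholly below (1.97%), and for 247 it held 1. These counts use the same untreated side, and nothing is read from them against those shares.

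A selection that leaves one untreated library out of the choice gives a baseline the rule did not use. For 438 transcripts with at least 5 reads beyond in Untreated A, the pooled fold of G418 A against Untreated B was 2.23, the median fold was 4.07 and 65.8% were at least 2-fold higher. For 802 transcripts chosen in the same way on Untreated B, and set against Untreated A, the values were 2.11, 3.79 and 60.7%. Of all 1823 tested transcripts, 1408 were at least 2-fold higher without Untreated A and 1403 without Untreated B. Those 1823 passed a minimum that counts G418 reads, so the shares are not compared. The baseline library had 0 reads for 86 of the 438 and for 248 of the 802. With every 0 set to 3 reads the medians were 3.06 and 1.83, and 61.4% and 46.8% were at least 2-fold higher. The values for the 802 thus rest in part on transcripts with no read in Untreated A.

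The highest folds were in transcripts with few untreated reads. The fold is divided by those reads, so high folds are favoured where they are few, and nothing is read from this. CNBP, a zinc-finger nucleic acid binding protein, had 2, 12 and 180 reads and a fold of 31.0 (15.9 to 51.0). BIRC5, the inhibitor of apoptosis survivin, had 3, 12 and 192 and a fold of 29.9. MDH1, cytosolic malate dehydrogenase, had 7, 4 and 151 and a fold of 25.9. ACTG1, gamma-actin, had 11, 2 and 179, and NCL, nucleolin, had 6, 10 and 168, with folds of 23.8 and 22.4. In all 5 the G418 count was many times either untreated count, and each had a CDS level within 0.837 to 1.09 times its untreated mean.

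At the other end, 29 members had 0 reads in G418 A, where a count of 0 allows up to 3 reads or 0.416 RPM. Their untreated sums were 10 to 19 reads. With the most untreated reads, NSD3, a histone methyltransferase, had 3 and 16, SCOC had 5 and 14, ST3GAL2, a sialyltransferase, had 1 and 18, APIP had 2 and 15, and ARMCX3 had 4 and 11. With 3 reads in place of 0, NSD3 was 2.65-fold lower, SCOC 2.80-fold, ST3GAL2 2.49-fold, APIP 2.31-fold and ARMCX3 2.22-fold. These values take the untreated mean as exact and leave out its counting error. The exact intervals of the fold, which count that error, ran up to 0.455 in NSD3, SCOC and ST3GAL2 and 0.515 in APIP. Of the 29 only 9 were at least 2-fold lower with 3 reads in place of 0, again with the untreated mean taken as exact. This brings the count of lower members from 68 to 48.

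Many members differed between the untreated libraries. The rule cut on the sum of both, and 359 of the 482 members held fewer than 20 untreated reads. Near that limit a low count in 1 library needs a higher one in the other. The ratios below therefore describe the chosen members and do not measure how well the libraries agree. In RPM 255 of the 482 members were within 2-fold between the libraries, 94 were over 2-fold higher in Untreated B and a further 19 had reads only there. Another 114 were over 2-fold higher in Untreated A, 9 of them with reads only there. Nearly all of the reads, 90% or more, were in one library for 58 members. CDPF1 had 1, 29 and 2 reads, ST3GAL2 had 1, 18 and 0, and SS18L2 had 17, 0 and 6. With 50 or more untreated reads 14 of 17 members were within 2-fold, and HSP90AA1 had the lowest ratio of these. The counting interval of the ratio of Untreated B to Untreated A lay wholly above 1 in 45 members and wholly below 1 in 77.

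**Figure D3:**
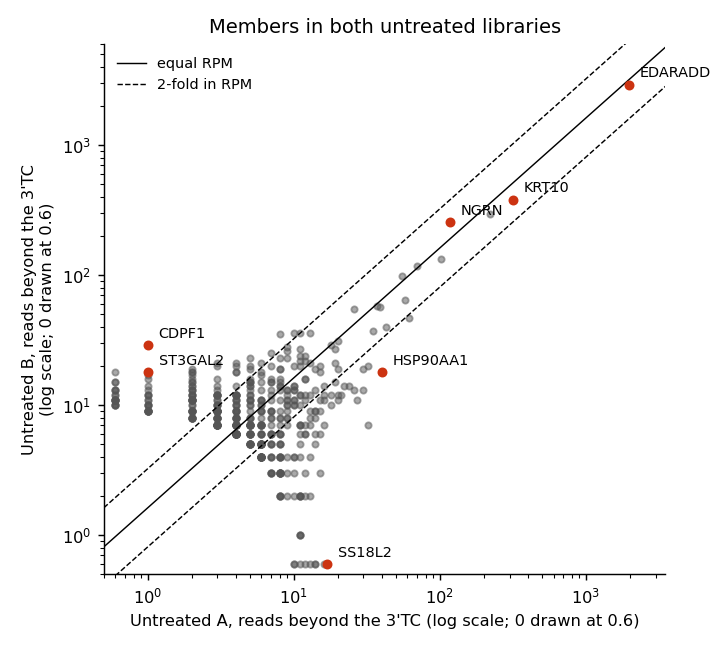
Reads beyond the 3'TC of each member in Untreated A and Untreated B, on log scales with counts of 0 drawn at 0.6. The solid line marks equal RPM and the dashed lines 2-fold; EDARADD, KRT10 and NGRN lie between the dashed lines, while many members near the limit of 10 reads lie outside, CDPF1 with 1 and 29 reads among them.

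The stretch between the NTC and the 3'TC was not used by the rule. On the members it held 974, 1172 and 12346 reads, and on the other transcripts 3820, 5190 and 65829. The pooled fold in G418 was 11.8 in members, against an untreated mean of 145 RPM ± 30.1 (SD, n = 2), and 15.2 in the others. With no minimum of reads, the G418 value was above both untreated values in 403 of the 482 members (83.6%) and below both in 7 (1.45%), beside 60.5% and 0.464% of all 8401 transcripts. Members also had higher CDS levels than the others, with medians given below, and the part of CDS level in this share was not tested. Of the 277 members with at least 10 reads there in the 3 libraries, 266 were at least 2-fold higher in G418, beside 95.8% of all 2062 transcripts with as many reads. No untreated read lay there in 71 of the 277 and in 730 of the 2062, which passed this minimum through G418 alone, so the minimum itself favours a high share and nothing is read from it. The median fold was at least 11.7 in members and at least 11.3 in all, with untreated zeros set to 3 reads over both libraries.

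With the G418 library assumed to vary as the untreated pair does, edgeR's quasi-likelihood test with Benjamini-Hochberg adjustment over the 2062 transcripts called 52 of the 277 members (18.8%) higher between the NTC and the 3'TC, beside 14.2% of all, under the same minimum of reads. None was called lower, with adjustment or at an unadjusted p under 0.05. ACTG1 had 0, 0 and 181 reads there and passed the minimum through G418 alone, so nothing is read from its call. RPS4X had 12, 16 and 331. ARF1, a small GTPase of vesicle traffic, had 15, 23 and 358 and TUBA1B, an alpha-tubulin, 10, 16 and 208. In RPS4X, ARF1 and TUBA1B the G418 count was many times either untreated count. The minimum counted G418 reads, and 71 of the 277 members, ACTG1 among them, passed it through G418 alone. Nothing is therefore read from the share called higher or from the lack of lower calls. For KRT10 there were 43, 45 and 36 reads and no call (adjusted p = 0.84). For the reads beyond, the same test called 35 members higher and none lower, with 1 lower at an unadjusted p under 0.05, beside 10.9% of the 1823 transcripts; the rule used that contrast, and nothing is read from it.

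Expressed per nucleotide as a percent of the CDS density of the same transcripts, the region before the 3'TC in members was at 2.59%, 1.95% and 27.9%. The region beyond it was at 0.672%, 0.634% and 1.19%. Without EDARADD the latter were 0.461%, 0.432% and 1.05%. The density beyond was thus 0.260 and 0.326 times that before in the untreated libraries and 0.0424 times in G418, or 0.178, 0.222 and 0.0377 times without EDARADD. In the transcripts that were not members the ratio was 0.0860, 0.0929 and 0.0403. In G418 the ratios of members and of other transcripts were therefore close, while in the untreated libraries the members had been chosen on the reads beyond.

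More reads lay beyond than before the 3'TC in 412, 440 and 260 members. No read at all lay before the 3'TC in 268, 310 and 59 members. Per nucleotide, the part beyond was the denser one in 279, 322 and 63 members. In 229 members the part beyond was the denser one in both untreated libraries, and in 178 of these the part before was denser in G418. By reads, 385 members had more beyond in both untreated libraries and 145 of these had more before in G418. The rule favoured reads beyond on the untreated side, so these counts are a description.

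**Figure D4:**
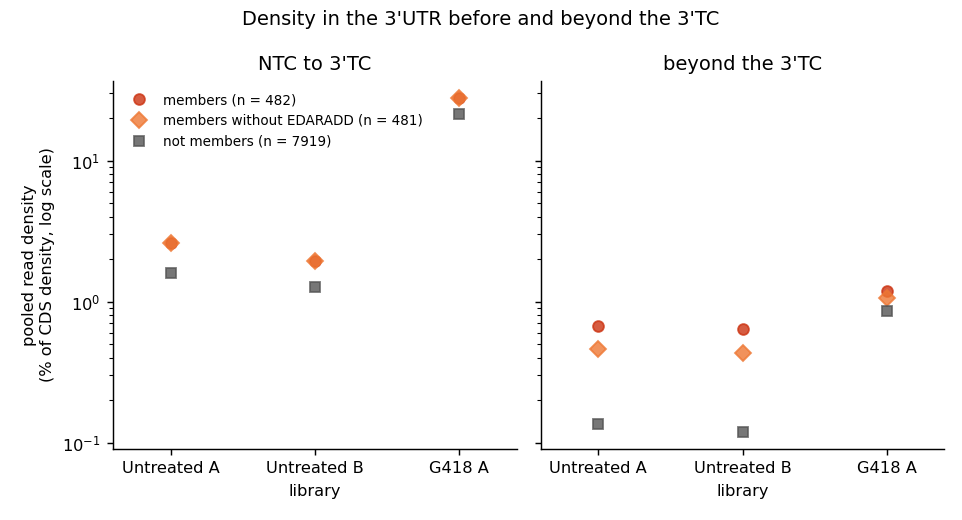
Pooled read density before the 3'TC (left) and beyond it (right), as a percent of CDS density on a log scale, in each library, for members, members without EDARADD and transcripts that are not members. Before the 3'TC all sets lie at 1.28% to 2.59% untreated and 21.3% to 27.9% in G418 A; beyond it the members stand above the others untreated and all sets come close, 0.858% to 1.19%, in G418 A.

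The CDS was the other measure the rule did not use. Its median log2 change in G418 was 0.06 in members and 0.10 in all 8401 transcripts, with 16 members (3.32%) at least 2-fold higher and 2 (0.415%) at least 2-fold lower, beside 3.51% and 0.857% of all. The pooled CDS level of the members was 99211, 96524 and 94169 RPM. Change in the CDS was thus small beside that in the 3'UTR.

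Members had longer 3'UTRs than the other transcripts, as a rule that counts reads favours: the median was 1954 nt against 981 nt, with 32 against 15 in-frame stops. Per kilobase of 3'UTR there were 17.9 in-frame stops in members and 16.2 in the others. The 3'TC ended a median of 57 nt after the NTC in members and 69 nt in the others. Untreated CDS level was 74.4 RPM against 26.2 RPM. The NTC was UGA in 221 members (45.9%), UAG in 108 (22.4%) and UAA in 153 (31.7%), beside 3971, 1733 and 2215 of the 7919 others (50.1%, 21.9% and the rest). Among 471 members placed on hg38 the 3'TC was UGA in 227, UAG in 94 and UAA in 150.

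Split by NTC, the median fold of reads beyond was 1.88 for UGA, 1.91 for UAG and 1.30 for UAA. Of UAA members 39 were at least 2-fold lower and 52 at least 2-fold higher. For UGA these were 20 and 106, and for UAG 9 and 51. Over all 1823 tested transcripts of any NTC 4.28% were lower and 77.6% higher, and no share by NTC is given. The rule used the untreated side of these folds, so the counts are a description. The pooled fold was 2.46 for UGA, 2.34 for UAA and 1.26 for UAG, and 2.65 for UAG without EDARADD. Before the 3'TC, G418 density reached 36.7% of CDS density for UGA members, 26.7% for UAG and 18.8% for UAA. On the density before in G418, which the rule did not use, UAA members were thus lowest. Nothing is read from the order of the folds beyond. UAA members also had a higher median untreated CDS level, 119 RPM beside 63.1 for UGA and 56.5 for UAG. Its part in the density was not tested, and that density is not given by NTC for all transcripts.

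The fold fell as the untreated density of the region rose, a relation that shares the untreated reads on both sides. In the 299 members whose region beyond had under 1% of the CDS density, the pooled fold was 3.65 and the median 2.36. From 1% to 10%, in 151 members, these were 1.79 and 1.15, and from 10% to 100%, in 28, they were 1.03 and 0.876. The 4 members at or above 100% were EDARADD, KRT10, TUBA4B and ITGAE, an integrin with 32, 20 and 17 reads, and their pooled fold was 0.752. EDARADD alone set that value below 1: the other 3 had 408, 448 and 499 reads and a pooled fold of 1.18, so without it the pooled fold did not fall further past 10%. Among the 28 with 10% to 100% were AL031777.3, NGRN, TP53RK, both SERF1 genes and GPATCH4.

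The members were also divided by annotation beyond the 3'TC, from GENCODE version 44. In 11 members the region held a pseudogene on the same strand or at least 50 stretches of 28 nt identical to the CDS of 1 other gene, and these carried 2385, 3604 and 2145 reads with a pooled fold of 0.755. Most of these reads were those of EDARADD, and the other 10 members had 426, 684 and 584 reads with a pooled fold of 1.12, on the other side of 1. In 33 further members the region overlapped annotated CDS of the same or another gene, with 629, 876 and 1233 reads and a fold of 1.71. In 23 it overlapped another exon on the same strand, with a fold of 2.42, and in 404 none of these, with 2926, 4228 and 9519 reads and a fold of 2.79. The remaining 11 could not be placed.
The class with a pseudogene or shared stretches made up 2.28% of members and 0.440% of all 8401 transcripts. The class with annotated CDS made up 6.85% and 3.32%. The former is not made of copies alone. In AL031777.3, EIF1B and GPI the stretches were shared with a gene whose CDS overlaps the region on the same strand. The class with annotated CDS leaves these 3 members out. Whether these features account for the reads was not tested.

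**Figure D5:**
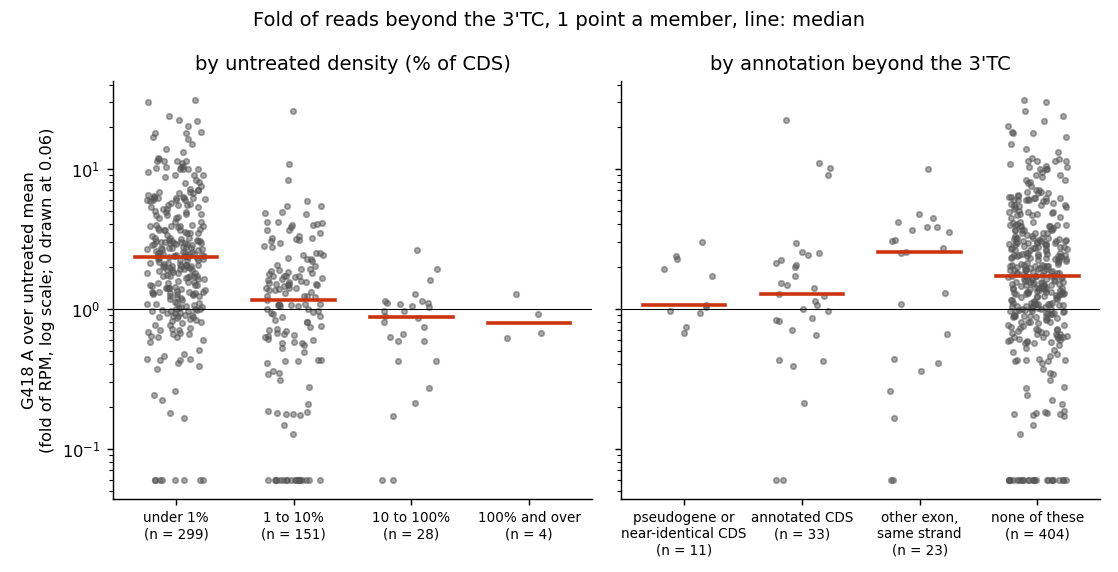
Fold of reads beyond the 3'TC, G418 A over the untreated mean on a log scale, 1 point per member, with a line at the median and folds of 0 drawn at 0.06. Left, by untreated density as a percent of CDS density, where the medians are 2.36, 1.15, 0.876 and 0.796; right, by annotation beyond the 3'TC, where the members with none of the features spread over the whole range.

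Of all 8401 transcripts 5.74% were members, and in the classes of genes with known events at the 3' end the counts were small. Of 19 replication-dependent histones with an in-frame stop 1 was a member, HIST3H2A, with 3, 10 and 29 reads. Of 11 selenoproteins, whose UGA codons are recoded with the help of a 3'UTR element, 1 was, SELENOF, with 10, 11 and 17 reads and a fold of 1.64 (0.852 to 3.42). Of 10 genes known for stop codon readthrough 3 were members, and they did not move together. MDH1 had a fold of 25.9, LDHB, lactate dehydrogenase B, had 14, 19 and 89 reads and a fold of 5.61 (3.80 to 8.83), and AGO1, an Argonaute protein, had 6, 5 and 0.
MDH1 and LDHB also had reads before the 3'TC untreated, 36 and 44 in MDH1 and 27 and 29 in LDHB, beside 119 and 65 in G418.

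Of 51 cytosolic ribosomal protein genes 3 were members. RPS4X had 13, 7 and 73 reads, RPL39 had 10, 4 and 77, and RPL27A, with an annotated 3'UTR of 4066 nt, had 8, 9 and 5. The first pair were 6.84-fold and 10.0-fold higher and RPL27A was at 0.599 times the untreated mean with an interval that holds 1 (0.180 to 1.76). Of 8 ER chaperones 1 was a member, CANX, with the counts given above.

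The factors that end translation and rescue stalled ribosomes differed little at the CDS. Of 26 on the list, 15 had enough CDS reads to be compared, and their log2 change in G418 ran from -0.43 to 0.57 with a median of 0.12, beside 0.07 for all 5684 transcripts with as many reads. EIF2D, which can release the small subunit after termination, was at 0.57, with 34.8, 32.7 and 50.2 RPM. ETF1, the release factor eRF1, was at 0.51, with 190, 166 and 253 RPM, and DENR, which acts in 40S recycling, at 0.50, with 54.5, 45.3 and 70.7 RPM. In these 3 the G418 value was above both untreated values. A log2 change of at least 0.5 in either direction was found in 3 of the 15 factors and in 756 of the 5684 transcripts. Nothing is read from the 3 against that background. ETF1 and HBS1L, a rescue factor, were themselves members, with 9, 3 and 7 reads beyond in ETF1 and 7, 4 and 17 in HBS1L.

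Some reads may be called beyond the 3'TC without lying past an in-frame stop. In transcripts with no in-frame stop, where no read can be beyond one, the same subtraction gave 2, 16 and 136 reads, against 317, 537 and 5636 that it placed before the end. These counts are small beside those of the members, but such transcripts have no 3'TC. The check cannot show how many reads are misplaced across one.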

How the data were processed

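The authors sequenced ribosome-protected fragments, removed linkers, collapsed unique molecular identifiers, aligned reads with STAR to hg38 with GENCODE version 30 (CASAVA 1.8 is also named in the submitters' processing notes), kept the primary alignment of reads matching several places, and assigned 28 to 35 nt reads to the A site on 1 transcript per gene. The deposited values used are RPM per region; the RPKM, ratio and count columns the authors deposited beside them served only for checks or were not used.

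Each RPM value was divided by the smallest nonzero 3'UTR value of its library, which gave whole reads for 100% of values (tolerance 0.001). Reads beyond the 3'TC are the 3'UTR reads minus those up to it; neither includes the 6 nt that follow the NTC. Folds are RPM in G418 A over the mean of both untreated libraries; a fold of 2 was the limit for higher or lower, with no test, since G418 has 1 library. Intervals other than the Wilson ones are exact (95%). Those beside a fold set G418 A against the summed reads and summed depth of both untreated libraries, not their mean RPM. They are thus not centred on the fold where the untreated libraries differ. After the data were seen, edgeR 4.0.16 (R 4.3.3) was added, with library sizes as deposited. Annotation and sequence came from GENCODE version 44 and hg38 for 8181 transcripts whose stops matched the tables. Scripts (Python 3.11.15, SciPy 1.17.1) were tested on simulated data. Genes named are EDARADD, the 10 members with most untreated reads, the 5 highest and 5 lowest folds, listed genes, neighbours of the limit and factors past 0.5 in log2; TSPAN3, HSP90AA1, TMEM167A, SRP19, ITGAE, CDPF1, SS18L2, ARF1, TUBA1B and HBS1L were picked after their values were seen. Members and lists were chosen with earlier results of these data known.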

Additional observations from a re-analysis of the deposited data

How the results depend on the processing

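G418 has 1 library, so no difference between conditions has a replicate check, and the untreated pair gives the only spread. No paired analysis was possible because the groups share only 1 replicate letter. Most members hold fewer than 20 untreated reads, which limits every single fold. The cause of the shifts below was not tested.

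The pooled fold of 1.90 was 2.19 with a minimum of 5 untreated reads (1249 transcripts) and 1.36 with a minimum of 20 (123), 2.46 without EDARADD, 2.74 without the 5 members with most reads and 2.64 in the 366 members whose 3'UTR shares no exon base with another gene. The median fold of 1.70 was 1.75 and 1.64 with these minimums, and the share at least 2-fold higher was 46.2% and 42.3%. Scaled by CDS reads of the library the latter 2 were 1.66 and 41.7%, and divided by the CDS reads of the same transcript 1.47 and 41.9%. Leaving out 1 untreated library, in the 473 members with a read in Untreated B or the 463 with one in Untreated A, gave pooled folds of 1.78 to 1.98, medians of 1.71 to 1.81 and shares of 45.1% to 46.5%. Members chosen on Untreated A and set against Untreated B gave 2.23, 4.07 and 65.8%, and the reverse 2.11, 3.79 and 60.7%. Every pooled and median fold stayed above 1. EDARADD kept a fold under 1, at 0.647 to 0.702 without 1 untreated library and 0.508 when divided by its own CDS reads.

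The ratio of density beyond to density before the 3'TC (0.260 in Untreated A, 0.326 in Untreated B) was 0.335 and 0.385 with a minimum of 20, 0.178 and 0.222 without EDARADD, 0.166 and 0.215 without the top 5, and 0.177 and 0.247 without shared exon bases. With members chosen anew at 10 reads in 1 untreated library alone the ratio ran from 0.292 to 0.400 for Untreated A, from 0.392 to 0.396 for Untreated B and from 0.0569 to 0.0628 for G418 A.

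Of all transcripts, 1414 of 1823 were at least 2-fold higher beyond the 3'TC, 2380 of 3204 with a minimum of 5 reads over the 3 libraries, 654 of 797 with 20, and 1403 to 1408 without 1 untreated library. The edgeR fit called 198, and 592 at an unadjusted p under 0.05.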
